A study of Arabidopsis thaliana with 8 samples.

Results

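A set of 74 genes was expressed well in Col-0 inflorescences and kept a small but measurable part of its mRNA in janus-2. The set was taken from the mRNA count tables of both genotypes. Levels are given in CPM, the reads counted on a gene for every 1000000 reads counted on genes of the library, which can be compared between libraries but not between genes of unequal length. A gene was a member when its mean in Col-0 was at least 50 CPM and its mean in janus-2 lay between 1/16 and 1/6 of that, which is 6.25% to 16.7%. The 74 members were drawn from 28775 genes, of which 5138 reached 50 CPM in Col-0. Of these 5138 genes, 1.44% fell within the limits, 263 (5.12%) kept less than 1/16 of their Col-0 level and are called almost lost here, 262 kept more than 1/6 and up to 1/2, and 4539 kept more than 1/2.

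The samples were inflorescences of Arabidopsis thaliana plants grown in long days without treatment. Col-0 is the wild-type accession, and janus-2 is a hypomorphic CRISPR/CAS9 line with a 4-bp deletion in an exon of JANUS (AT2G18510), backcrossed to Col-0. It is a single line, and its plants are small and sterile. JANUS is the Arabidopsis homolog of the splicing factor SF3B4. Each genotype had 2 mRNA libraries, labelled as replicates, and the study's methods call them biological replicates. Nothing in the labels says that they came from separate plants, so that p-values may measure technical spread only. JANUS itself had 55.1 and 54.6 CPM in the Col-0 libraries and 18.2 and 19.4 CPM in the janus-2 libraries, with a log2 fold change of -1.53 (SE 0.07). Between 56360882 and 65578130 reads per library lay on genes, so that 3 reads were worth 0.0457 to 0.0532 CPM.

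Many of the members with a known role belong to the tapetum, the innermost layer of the anther wall. The tapetum feeds the developing microspores, secretes the enzymes that free them from the tetrad, and makes the precursors of sporopollenin, the polymer of the outer pollen wall. It then breaks down and leaves its lipids and proteins on the grain as the pollen coat. An inflorescence holds flowers of all stages, and the RNA was taken from whole inflorescences, so that fewer cells of a type and less RNA per cell cannot be told apart.

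Because the janus-2 level was part of the rule, the size and the direction of the falls below are descriptions and were not tested on their own. All 74 members were called lower in janus-2 by edgeR's quasi-likelihood test over the whole table (Benjamini-Hochberg adjusted p no higher than 0.05 with at least a 1.5-fold difference), as the rule made likely. Among all genes at 50 CPM or more, 18.2% were called lower and 12.3% higher. Both janus-2 libraries lay below both Col-0 libraries for all 74 members, as they did for 46.1% of the genes at 50 CPM or more and 47.3% of all genes tested. Mean levels of the members ran from 50.7 to 1219 CPM in Col-0 (median 85.9) and from 3.45 to 99.1 CPM in janus-2 (median 9.28). The members kept a median of 10.6% of their Col-0 level, against 101% for all genes at 50 CPM or more and 0.289% for the almost lost genes. On the log2 scale the median difference was -3.24, against 0.01 for all genes at 50 CPM or more. Together the members took 0.984% and 0.979% of the reads in the Col-0 libraries and 0.101% in each janus-2 library.

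**Figure D1:**
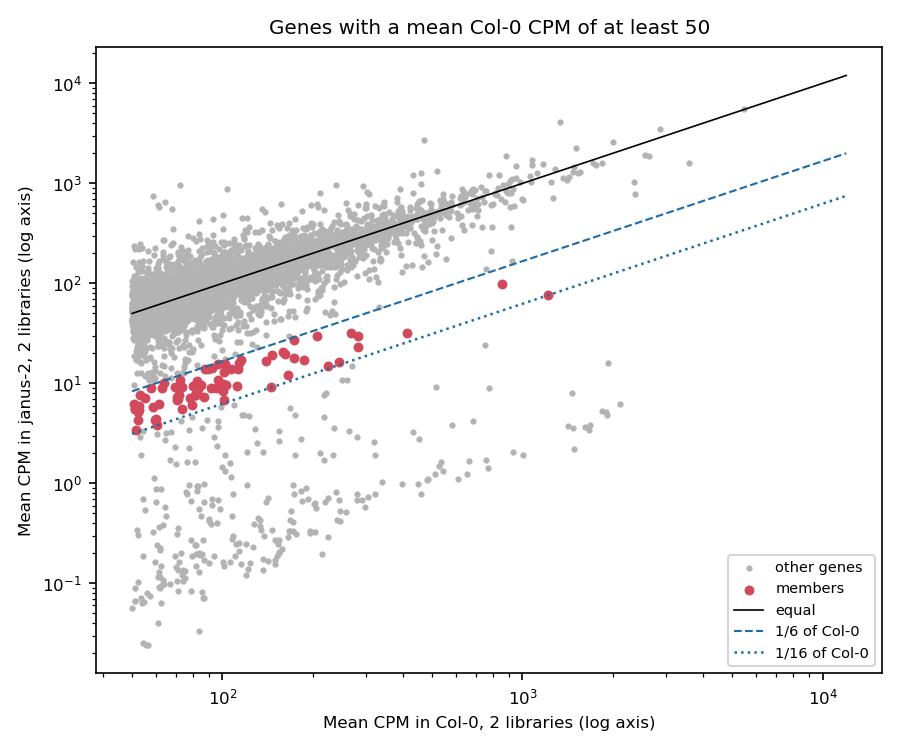
Mean CPM in Col-0 (x axis) and in janus-2 (y axis) of the 5138 genes with at least 50 CPM in Col-0, each a mean of 2 libraries, on log axes. The 74 members (red) lie between the lines for 1/6 and 1/16 of the Col-0 level, below the main body of genes along the line of equal levels and above the 263 almost lost genes, the nearest of which adjoin the members.

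The largest group with a known role was the sporopollenin pathway, with 9 genes. They kept between 9.76% and 15.7% of their Col-0 level, and their summed level was 784 and 778 CPM in the Col-0 libraries and 104 and 103 CPM in the janus-2 libraries. Among these genes, ACOS5 encodes an acyl-CoA synthetase that activates fatty acids. ACOS5 stood at 101 and 103 CPM in Col-0 and at 16.5 and 14.8 CPM in janus-2, so that its log2 fold change was -2.69 (SE 0.06). CYP703A2 and CYP704B1 are cytochrome P450 enzymes that hydroxylate fatty acids. CYP703A2 stood at 51.9 and 50.1 CPM in Col-0 and at 5.47 and 5.48 CPM in janus-2, which is 10.7% of the Col-0 mean. CYP704B1 stood at 73.4 and 73.3 CPM in Col-0 and at 8.89 and 9.38 CPM in janus-2, or 12.5%. For each of these genes, the libraries of a genotype differed little beside the distance between the genotypes, which the rule required to be large.

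LAP6 and LAP5 are polyketide synthases that lengthen the activated fatty acids to alkyl pyrones. LAP6 had 114 and 112 CPM in Col-0 and 14.8 and 17.2 CPM in janus-2, where it kept 14.1%. LAP5 had 82.0 and 83.7 CPM in Col-0 and 9.04 and 8.43 CPM in janus-2, where it kept 10.5%. The reductases that act on the pyrones, DRL1 (also named TKPR1) and TKPR2, kept closely similar shares. DRL1 went from 91.4 and 87.2 CPM to 13.8 and 13.9 CPM, or 15.6% of Col-0, and TKPR2 from 57.4 and 57.9 CPM to 9.20 and 8.90 CPM, or 15.7%. MS2, which reduces fatty acyl groups to fatty alcohols, went from 161 and 158 CPM to 21.2 and 19.8 CPM, with a log2 fold change of -2.94 (SE 0.05). ABCG26, the transporter that exports the precursors from the tapetum, had 52.5 and 52.2 CPM in Col-0 and 5.06 and 5.16 CPM in janus-2.

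Ordered by the share of the Col-0 level that was kept, the 9 genes ran ABCG26, LAP5, CYP703A2, CYP704B1, MS2, LAP6, ACOS5, DRL1 and TKPR2. The ends of this order differed 1.61-fold. The Col-0 and janus-2 libraries give 4 pairs per gene, and 6 of the 8 neighbours in the order overlapped in the range over these pairs. The neighbours that did not overlap were ABCG26 (9.65% to 9.87%) and LAP5 (10.1% to 11.02%), and CYP703A2 (10.5% to 10.9%) and CYP704B1 (12.1% to 12.8%). AMS, a basic helix-loop-helix transcription factor of the tapetum needed for the expression of sporopollenin genes, lay at the upper end of the range. It had 88.5 and 87.0 CPM in Col-0 and 13.6 and 14.3 CPM in janus-2, or 15.9%.

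**Figure D2:**
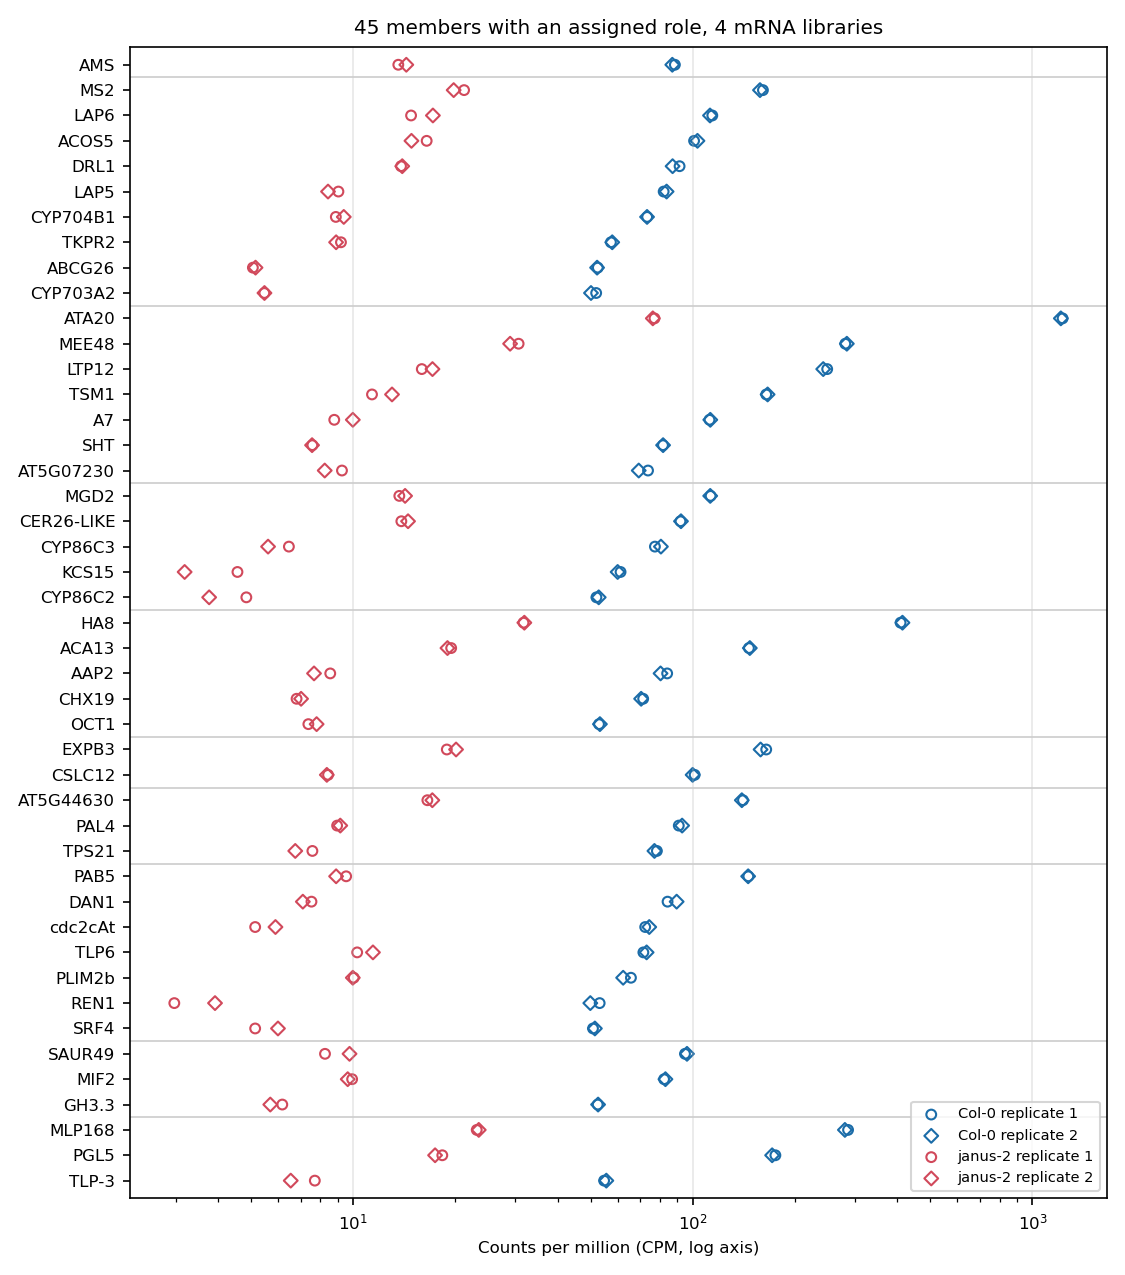
CPM on a log axis in the 4 mRNA libraries for the 45 members with an assigned role, grouped by role from AMS and the sporopollenin genes at the top to other named genes at the bottom. Blue marks are Col-0 and red marks janus-2, circles replicate 1 and diamonds replicate 2. For every gene the red marks lie well to the left of the blue ones, as the rule made likely.

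A further 7 members are tapetum or anther genes, and they kept between 6.29% and 12.2%. ATA20, isolated as an anther gene, drew the most reads of any member, with 1226 and 1212 CPM in Col-0 and 77.1 and 76.2 CPM in janus-2. It lay nearest to the lower limit of the set, at 6.29% of Col-0 (log2 fold change -3.98, SE 0.02). MEE48 (AT4G14080), which resembles β-glucanases, had 281 and 284 CPM in Col-0 and 30.7 and 29.0 CPM in janus-2, or 10.6%. LTP12, a lipid transfer protein of the tapetum, fell further, from 249 and 242 CPM to 15.9 and 17.1 CPM, which left 6.73%. The ranges of MEE48 (10.2% to 10.9%) and LTP12 (6.40% to 7.07%) over the library pairs did not overlap.

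Enzymes that decorate spermidine for the pollen surface were also members. SHT, which attaches hydroxycinnamic acids to spermidine, had 81.7 CPM in each Col-0 library and 7.58 and 7.56 CPM in janus-2, or 9.27%. TSM1, a methyltransferase that acts on such conjugates in the tapetum, had 164 and 166 CPM in Col-0 and 11.4 and 13.0 CPM in janus-2, or 7.37%. A7 (ANTHER 7) kept 8.36% and AT5G07230, a gene of the tapetum list described below, kept 12.2%. The libraries of the 2 genotypes lay far apart in all 7 genes, as the rule made likely.

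Of the 18 genes on a list of tapetum and sporopollenin genes, 13 were members, and all 18 were called lower in the same test, where 27.2% of the 22990 genes tested were called lower and 18.5% higher. The median log2 fold change of the list was -3.21, against -0.02 for all genes tested. The list was compiled with earlier results of these data known, so that its direction is not independent evidence. The other gene on it above 50 CPM in Col-0, QRT3, a polygalacturonase that helps to separate the pollen grains of a tetrad, was almost lost. QRT3 stood at 116 CPM in each Col-0 library and at 4.84 and 4.90 CPM in janus-2, which is 4.21% of Col-0.

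The remaining 4 genes of the list are transcriptional regulators that did not reach 50 CPM in Col-0. TDF1, a MYB factor that acts before AMS, stood at 1.92 and 1.88 CPM in Col-0 and at 0.236 and 0.153 CPM in janus-2, or 10.2%. MYB80, which acts after AMS, stood at 3.28 and 3.35 CPM in Col-0 and at 0.346 and 0.356 CPM in janus-2, or 10.6%. MS1, a PHD-finger protein of the late tapetum, stood at 11.3 and 9.73 CPM in Col-0 and at 1.27 and 0.594 CPM in janus-2, and its janus-2 libraries differed from each other more than those of the other regulators. Their shares lay within the same limits as the members, at low levels where the error was large (SE of the log2 fold change 0.34 to 0.52). DYT1, an early regulator of the tapetum, had 0.444 and 0.488 CPM in Col-0 and a total of 1 read in the janus-2 libraries, so that no share was read from it.

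**Figure D3:**
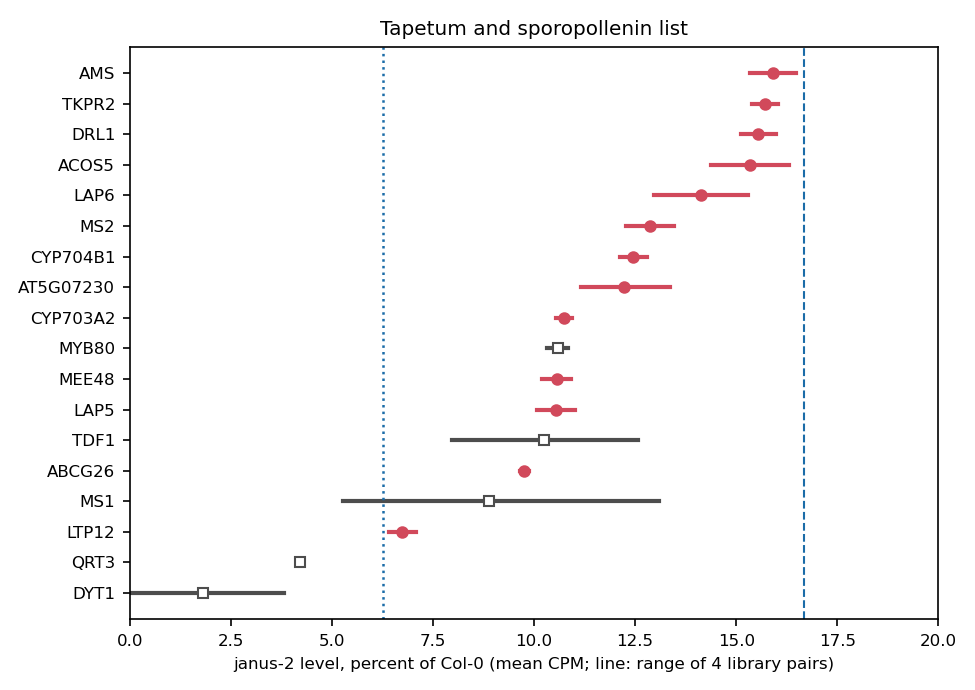
Level in janus-2 as a percent of the Col-0 mean for the 18 genes of the tapetum and sporopollenin list, with lines for the range over the 4 pairs of a Col-0 and a janus-2 library. Red dots are the 13 members, open squares the other 5 genes, and the vertical lines mark 1/16 (dotted) and 1/6 (dashed): the members run from LTP12 at 6.73% to AMS at 15.9%.

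Most genes on a list for mature pollen and the pollen tube lay far below this range. PLIM2b and REN1, members with roles in pollen that are described below, were not on this list. Of 25 tested genes of mature pollen and the pollen tube, 23 were called lower, against 27.2% of all genes tested. Of the 18 genes on the list above 50 CPM in Col-0, 16 were almost lost, against 5.12% of all such genes, and the other 2 kept more than 1/2. The remaining 8 lay below 50 CPM and could be neither members nor almost lost. Among them, ANX1 kept 32.8% and CNGC18 35.3%, while ADF7, ADF10, AGL66, AGL104 and CPK34 kept 0.201% to 0.745%. AT4G39110 had no reads in any library. VGD1, a pectin methylesterase of the pollen tube, stood at 1907 and 1917 CPM in Col-0 and at 4.33 and 5.36 CPM in janus-2, or 0.253%. The median log2 fold change of this list was -8.46, against -3.21 for the tapetum list. Its summed level went from 7884 and 7899 CPM to 562 and 571 CPM, and most of what was left came from SUC1 and ACT11, which the flower also expresses elsewhere. SUC1 stood at 424 and 427 CPM in janus-2, or 135% of Col-0, and ACT11 at 104 and 108 CPM, or 115%. Of the pollen coat list, 9 of 10 genes were called lower and 6 were almost lost, among them the oleosin-like GRP17 at 0.833%. The loss of pollen transcripts moved with the falls of the members, and its part in them was not tested.

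The lists for other flower parts lay mostly outside the range of the members as well, and several of their counts were near the 27.2% called lower and 18.5% called higher among all genes tested. All 4 genes of petal cutin synthesis were called lower and kept 31.3% to 39.6%. On the list of floral terpenes and volatiles, 7 of 8 genes were called lower, 2 were members and 3 were almost lost. The nectary list had 4 of 5 genes called lower, with SWEET9 and cwINV4 almost lost, and the secondary wall and endothecium list 3 of 8. On the latter list, MYB26 kept 14.8% but stood at 12.7 and 13.4 CPM in Col-0, under the minimum for a member. Among jasmonate and stamen maturation genes, 4 of 9 tested were called lower and 2 higher, and MYB108, a MYB factor of stamen maturation, kept 11.3% but stood at 20.6 and 20.7 CPM in Col-0, under the minimum for a member. The sperm cell list had 3 of 3 tested genes called lower, the ovule, seed coat and embryo list 3 of 7 with 1 higher, the flavonoid list 3 of 7 with 2 higher, and floral organ identity 2 of 5. All 6 leaf photosynthesis genes stayed between 75.1% and 122% of Col-0, within the fold change that a call required.

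**Figure D4:**
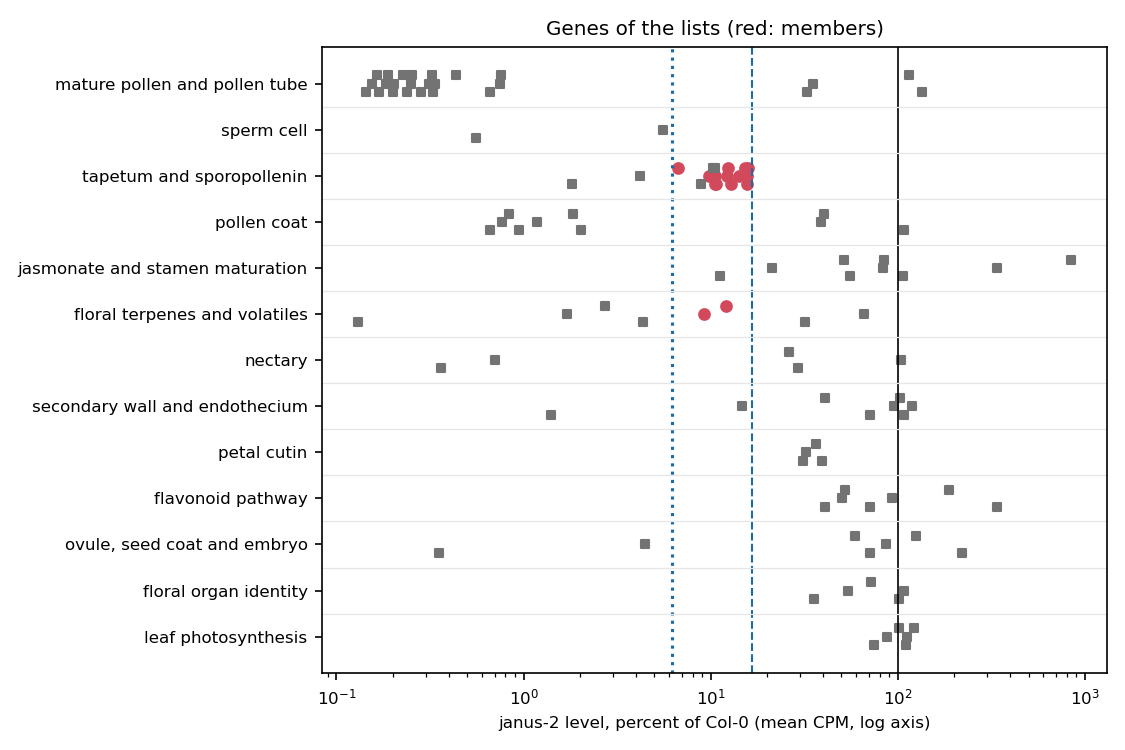
Level in janus-2 as a percent of Col-0 (mean CPM, log axis) for 114 genes of 13 lists of cell types and pathways. Red dots are members and grey squares other genes, with lines at 1/16 (dotted), 1/6 (dashed) and equal levels (solid). Members occur on the tapetum list (13) and the terpene list (2), while most genes of the mature pollen list lie below 1%.

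Lipid enzymes outside the sporopollenin pathway gave 5 members. MGD2, which makes the galactolipid monogalactosyldiacylglycerol, had 113 and 112 CPM in Col-0 and 13.7 and 14.2 CPM in janus-2, or 12.4%. AT3G23840, listed as CER26-LIKE after a protein of wax elongation, kept 15.4%. The cytochrome P450 genes CYP86C3 and CYP86C2, of a family of fatty acid hydroxylases, kept 7.65% and 8.21%. KCS15, a 3-ketoacyl-CoA synthase of fatty acid elongation, had 61.2 and 60.1 CPM in Col-0 and 4.56 and 3.19 CPM in janus-2. Its janus-2 libraries differed more than those of any other member, by 0.52 on the log2 scale, and its share of 6.39% ran from 5.21% to 7.60% over the library pairs.

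Pumps and transporters gave 5 members. HA8, a plasma membrane proton pump, drew the most reads of them, with 409 and 414 CPM in Col-0 and 31.7 and 31.9 CPM in janus-2 (log2 fold change -3.68, SE 0.03). ACA13, a calcium pump, had 146 and 147 CPM in Col-0 and 19.4 and 18.9 CPM in janus-2, or 13.1%. The amino acid permease AAP2 kept 9.87%, the cation/proton exchanger CHX19 9.75% and OCT1, of the organic cation/carnitine transporters, 14.3%. In the cell wall group, EXPB3, a β-expansin, had 164 and 158 CPM in Col-0 and 18.9 and 20.1 CPM in janus-2, or 12.1%. CSLC12, of the family that makes the glucan backbone of xyloglucan, had 101 and 99.9 CPM in Col-0 and 8.43 and 8.36 CPM in janus-2, or 8.35%.

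Among enzymes of secondary metabolism, TPS21, a terpene synthase that makes floral sesquiterpenes, had 78.4 and 77.1 CPM in Col-0 and 7.58 and 6.75 CPM in janus-2, or 9.22%. AT5G44630, on the same list of terpenes and volatiles, had 140 and 139 CPM in Col-0 and 16.5 and 17.1 CPM in janus-2, or 12.015%. The other terpene genes on the list did not keep such shares: TPS14, a linalool synthase, kept 2.74%, TPS10 1.71%, and CYP76C3, a P450 that oxidizes linalool, 4.35%, while CYP76C1 kept 31.8%. PAL4, a phenylalanine ammonia-lyase at the entry of phenylpropanoid synthesis, kept 9.86%.

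The 7 members with roles in RNA binding, the cytoskeleton or signalling kept between 6.33% and 15.6%. PAB5, a poly(A)-binding protein of reproductive tissues, had 146 and 145 CPM in Col-0 and 9.53 and 8.90 CPM in janus-2, just above the lower limit. PLIM2b, a LIM protein that bundles actin filaments in pollen, had 65.7 and 62.3 CPM in Col-0 and 10.035 and 9.97 CPM in janus-2, near the upper limit. REN1, a GTPase-activating protein for the ROP1 switch of pollen tube growth, had 53.2 and 49.9 CPM in Col-0 and 2.97 and 3.92 CPM in janus-2, or 6.69%. DAN1, a nucleic acid binding protein named for its activation by the male germline factor DUO1, kept 8.42%. The kinase gene cdc2cAt kept 7.52%, the receptor-like kinase gene SRF4 10.9% and TLP6, a tubby-like protein, 15.0%.

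Genes of auxin response were SAUR49 (9.43%) and GH3.3 (11.3%), which joins auxin to amino acids. MIF2, a mini zinc finger protein, kept 11.8%. The other named members were MLP168, a major latex protein-like gene, PGL5, a 6-phosphogluconolactonase of the pentose phosphate pathway, and TLP-3, a thaumatin-like protein. MLP168 drew the most reads of these 6 genes, with 286 and 280 CPM in Col-0 and 23.1 and 23.4 CPM in janus-2, or 8.21%.

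For 29 members no name or role was available here beyond the locus, apart from the 2 such genes on the tapetum and terpene lists. Their levels covered nearly the whole span of the set, from 50.7 to 852 CPM in Col-0 and from 4.28 to 99.1 CPM in janus-2, and they kept a median of 11.2%. AT5G33370 drew the second most reads of the set, with 853 and 851 CPM in Col-0 and 99.9 and 98.3 CPM in janus-2, or 11.6%. AT4G37900 had 270 and 265 CPM in Col-0 and 31.2 and 33.2 CPM in janus-2, or 12.025%. AT1G47980 kept the smallest share of the 29 genes, at 6.56%, with 226 and 224 CPM in Col-0 and 14.6 and 14.9 CPM in janus-2. In each of these genes the libraries of a genotype lay close together. AT1G44970 kept 14.5%, AT3G63095 9.18%, AT2G15880 15.8%, AT1G70790 14.9%, AT4G38950 13.1% and AT5G16960 9.46%. Among the others, AT5G16920, AT2G03850 and AT5G44400 kept small shares, of 6.72%, 7.19% and 7.35%, while AT4G20420 and AT5G55720 kept 16.1% and 14.3%. AT4G20420 had 97.1 and 95.5 CPM in Col-0 and 16.1 and 15.0 CPM in janus-2, the largest share in the whole set.

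Among families with a common name, some fell throughout and others held genes that rose. In 17 families that held 18 of the members, 109 other genes were listed and 102 of them were tested. Of these, 35 were called lower and 25 higher, 42 were not called, and 4 were almost lost. These shares stand beside 27.2% lower and 18.5% higher among all genes tested. At least 1 other gene was called higher in 13 of the families, and in 3 families no other gene was called lower.

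The plasma membrane proton pumps covered the widest span. While HA8 kept 7.73%, HA6 and HA9, also known from pollen or anthers, went from a mean of 396 and 452 CPM to 0.993 and 2.77 CPM and were almost lost. HA1, HA2 and HA3 were called higher, at 217%, 396% and 240% of Col-0. Among the phenylalanine ammonia-lyases, PAL4 kept 9.86%, PAL1 53.1% and PAL2 94.0%, and PAL3 was called higher at 224%. The poly(A)-binding proteins likewise ranged from PAB3, almost lost at 0.316%, over PAB5 at 6.33% to PAB8 at 160%. In the phenylalanine ammonia-lyases the member kept the smallest share, while in the other 2 families it lay between an almost lost gene and genes called higher.

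PLIM2b, at 15.6%, stood beside its pollen relatives PLIM2a at 0.506% and PLIM2c at 0.262%, and the broadly expressed WLIM1, WLIM2a and WLIM2b stayed at 96.3% to 132%. The lipid transfer proteins LTP2, LTP3 and LTP4 were called higher, at 351%, 277% and 317%, and so was LTP5 at 188%. LTP6 was called lower, at 27.0% of Col-0, and LTP12 kept 6.73%. CSLC12 was the only gene of its family called lower, and CSLC04 was called higher at 296%. In the CYP86C family all 4 genes were called lower, with CYP86C4 at 6.55% and CYP86C1 at 23.2%. CYP86C4 stood at 27.2 and 25.9 CPM in Col-0 and so missed the minimum for a member. All 3 other β-expansins tested were also called lower, as was 1 of the 2 other monogalactosyldiacylglycerol synthases, and in neither family was a gene called higher. Near-identical copies could share or split reads, and how such reads were counted is not given in the sources used here.

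**Figure D5:**
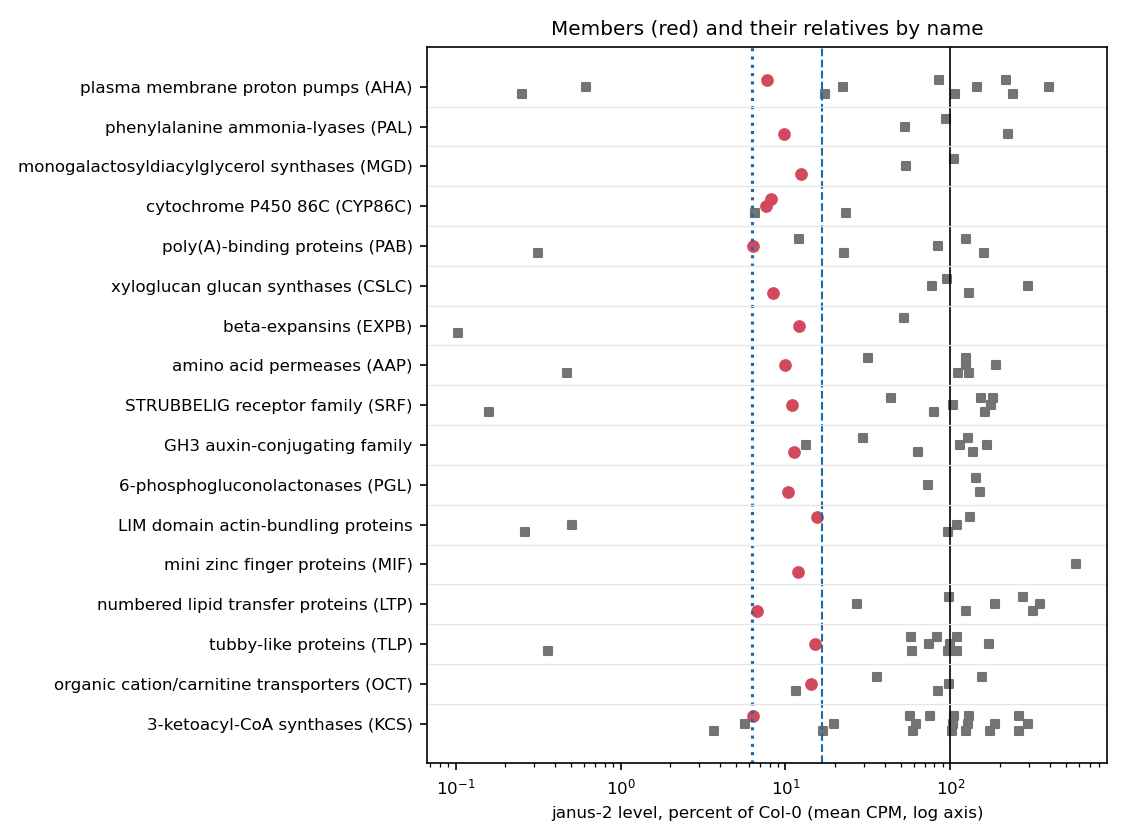
Level in janus-2 as a percent of Col-0 (mean CPM, log axis) for 119 genes of 17 families that share a name with a member. Red dots are the 18 members, between 1/16 (dotted line) and 1/6 (dashed line) of Col-0, and grey squares their relatives, which spread from below 1% (such as HA6 and PLIM2a) to above 200% (such as HA2, HA3 and CSLC04).

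Members were scattered over the genome. The 5 chromosomes, in order, held 19, 8, 17, 12 and 18 of them, and no member lay next to another. Of the 148 genes directly beside a member, 133 were tested, of which 39 were called lower (29.3%) and 25 higher, close to the 27.2% called lower among all genes tested. Their median log2 fold change was -0.12. The annotated span of 17 members overlapped a neighbour, AMS, LAP5, DRL1, ABCG26 and PAB5 among them. AMS overlapped UBC23, with a mean of 46.1 CPM in Col-0 against 59.0 CPM in janus-2, which was not called. Whether the counting used strand is not given in the sources used here, so that reads from overlapping genes cannot be told apart where it did not. All 74 members are annotated as protein coding.

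Replicates of the members agreed closely in Col-0, where the median absolute log2 ratio between the libraries was 0.02, against 0.03 for all genes at 50 CPM or more. In janus-2 it was 0.08, against 0.03 for all genes at 50 CPM or more and 0.28 for the almost lost genes. The members had a median of 598 and 557 reads in the janus-2 libraries, and the lowest count was 188 reads, for KCS15. These counts lay between those of all genes at 50 CPM or more (medians 5606 and 5212) and those of the almost lost genes (37 and 33).

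The limits of the set cut through a continuous range. At 1/16, ATA20 (6.29%) and PAB5 (6.33%) lay just inside, and BAS (6.22%) and AT3G21320 (6.09%) just outside. At 1/6, AT4G20420 (16.1%) and AMS (15.9%) lay just inside, and INT4 (16.9%) and AT5G62080 (17.1%) just outside. At the Col-0 minimum, AT3G19390 (50.7 CPM) and CYP703A2 (51.0 CPM) lay just inside, and SWEET4 (49.99 CPM) and NAC2 (49.2 CPM) just outside. For 6 members, ATA20, PAB5, KCS15, REN1, AT2G15880 and AT4G20420, at least 1 pair of libraries fell beyond a limit. Of the members, 13 kept under 8% of Col-0, 33 between 8% and 12%, and 28 more than 12%. Below the Col-0 minimum, 132 genes with 10 to 50 CPM in Col-0 also kept between 1/16 and 1/6.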

How the data were processed

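Inflorescence mRNA of Col-0 and janus-2 was analysed, with 2 libraries each. The 4 small RNA libraries of the series were not used. The authors deposited raw counts of reads per gene for each library, not normalized, and the submitters' processing notes name Bowtie, HTSeq and the genome build TAIR10 with no settings. Whether counting used strand is not given in the sources used here. Rows that name no gene (no feature 1.11% to 1.13% and ambiguous 2.15% to 2.34%, of the reads in a table) were left out.

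CPM was computed with plain column sums, and the mean over 2 libraries chose the members. The members and all gene lists were chosen with earlier results of these data known, and the roles were assigned after the values were seen. All genes were tested together with edgeR 4.0.16 (filterByExpr, TMM, quasi-likelihood test) in R 4.3.3. A call needed a Benjamini-Hochberg adjusted p no higher than 0.05 with at least a 1.5-fold difference. Fold changes are those of edgeR and standard errors those of DESeq2 1.42.0. The study's methods called genes with Ballgown, which these count tables cannot feed. Libraries of a genotype differed beyond sampling noise (chi-square per degree of freedom 2.34 for Col-0, 2.51 for janus-2). The fits were tested on simulated counts of this comparison over 22745 genes, with the same spread set for all genes. There edgeR recovered 98 of 100 genes with a log2 change of 1 and 100 of 100 with a log2 change of 3, with 2 false calls. DESeq2 recovered 88 of 100 and 99 of 100, with 0 false calls. Far fewer genes were changed there than were called in these data, and as many were raised as lowered. These rates need not hold for the real comparison.

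Names and neighbours came from the RefSeq annotation of TAIR10.1, which matched all 74 members and 28009 of 28775 genes. Since its build differs from that of the count tables, no coordinates are given. Named genes were the 20 members with the highest mean CPM in Col-0, the members on a fixed list or in a class of function words in their RefSeq name, and the genes at each limit, and the other members named were chosen after their values were seen. The function words matched few members, since 50 of 74 names held none of them. Families were taken by gene name. Sequences, protein similarity and promoter motifs were not analysed here. Alternatives changed the scaling (TMM, DESeq2 size factors), the tool (DESeq2), the filter on low counts, the Col-0 minimum, the use of a replicate block, and the libraries used (each left out in turn). Figures were drawn with matplotlib 3.10.9.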

Additional observations from a re-analysis of the deposited data

How the results depend on the processing

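The set changed little with the scaling. It held 75 genes with TMM-adjusted library sizes or DESeq2 size factors, in both cases the 74 members and BAS, and between 73 and 78 genes when each library was left out in turn. Members lost when a library was left out were AT3G19390 and REN1 (without Col-0 replicate 1), KCS15, PAB5 and AT2G15880 (without janus-2 replicate 1), and AT4G20420 and REN1 (without janus-2 replicate 2). With a minimum of 100 CPM in Col-0, 29 members were left, because fewer genes reached it. The median log2 ratio of the members was -3.24, and it was -3.23 with TMM and between -3.25 and -3.21 with a library left out. Only TMM and leaving out either janus-2 library moved it by more than its spread over the library pairs.

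All 666 fitted values of the members under the alternatives kept their direction and their call, and the largest move was 0.29 on the log2 scale. Over the whole table, the 6244 genes called lower and 4258 called higher were 6024 and 4103 with DESeq2, 6705 and 4411 without the filter, 6347 and 4122 with plain column sums, and 6018 to 6268 lower with a library left out. Samples with the same replicate number did not deviate together over the genes (r = -0.01). With 2 libraries per genotype, r is the same for both numbers by construction. The check is therefore weak and cannot tell whether such samples shared a batch. With the replicate number as a block, 6180 genes were called lower and 4224 higher. All 74 members, as the rule made likely, and all 18 tapetum list genes kept their call. With 2 libraries in each group no library could be tested as an outlier. Low counts limit the janus-2 levels of DYT1, TDF1 and MYB80 on the tapetum list. The janus-2 libraries of KCS15 (4.56 and 3.19 CPM) and REN1 (2.97 and 3.92 CPM) lay further apart than those of AT5G44400 (4.33 and 4.53 CPM). CYP86C2, at similar counts, also had a wide spread (4.84 and 3.76 CPM). The SE of the log2 fold change, which does not measure this spread alone, was 0.25 for KCS15 and 0.19 for REN1. It was 0.09 for AT5G44400 and 0.10 for CYP86C2. The cause of the spread was not tested.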
